A study of Mus musculus with 6 samples.

Results

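The 10 genes described here were the transcriptional coactivators Yap1 (YAP) and Wwtr1 (TAZ), their DNA-binding partners Tead1, Tead2, Tead3 and Tead4, and the YAP/TAZ target genes Cyr61 (also named Ccn1), Ctgf (also named Ccn2), Ankrd1 and Amotl2. They were taken by gene symbol from a table of 51499 loci, of which 13867 had enough counts to be tested. Each of the 10 symbols named a single locus, not joined to another symbol, and all 10 loci were tested. The loci of Tead1, Tead2 and Ctgf reached beyond their genes, as given with their values. Their transcripts were measured by poly(A) RNA sequencing in 3 wild-type (WT) and 3 Yme1l-/- cultures of mouse embryonic fibroblasts (MEFs). All 6 cultures had been immortalized with SV40. WT cells carried the floxed, undeleted Yme1l fl/fl alleles, and Yme1l-/- cells lacked YME1L, an ATP-dependent protease of the inner mitochondrial membrane. Per the study's methods, both genotypes came from clones picked after Cre transduction of immortalized cells from loxP/loxP animals, so clone and genotype cannot be told apart. Hoxd13, a gene of distal body positions, had 5500 to 5823 fragments in the WT libraries and 0 in each Yme1l-/- library. Hoxc13, another positional gene, had 5 to 6 in WT and 1084 to 1343 in Yme1l-/- libraries.

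YAP and TAZ are the effectors of the Hippo pathway. When the kinases MST (Stk3 and Stk4) and LATS (Lats1 and Lats2) are active, YAP and TAZ are phosphorylated, held in the cytosol and degraded. When the kinases are inactive, as in spread cells on a stiff matrix with tensed actin fibres, YAP and TAZ enter the nucleus and bind TEAD factors, which recognise short DNA elements at promoters and enhancers. In fibroblasts this pathway is known for the transcription of secreted matrix proteins such as CTGF and CYR61. Since YAP and TAZ are regulated mainly as proteins, transcript levels do not measure their activity.

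The TEAD element was looked for in the promoters of the 10 genes, to show the DNA letters that these factors read. RefSeq promoter windows (build GRCm38.p6, 250 bases before to 50 bases after a transcript start) were at hand for 7 of the 10 genes, that is for all but Tead1, Tead4 and Ctgf. GGAATG, the core of the TEAD element, was searched for on both strands, where it reads CATTCC on the reverse. It was present in at least 1 window of 6 of these 7 genes, Tead2 being the exception. Over all genes, which like the members can have several windows, it was in a window of 16.6% of 27025 genes, and in 14.7% of all 32851 windows. A CArG box, the element of serum response factor, which some YAP target genes also carry, was in a window of 0 of the 7 and of 1.81% of all genes. The matches in Yap1, Wwtr1 and 3 of the targets are printed below 5′ to 3′ on the strand of the gene, with the core in capitals and 12 bases on each side, to show the element in the coactivators and in those targets that have a window. A match of letters is no evidence of binding.
Yap1, chr9:8004720-8004749: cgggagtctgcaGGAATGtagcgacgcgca
Wwtr1, chr3:57576029-57576058: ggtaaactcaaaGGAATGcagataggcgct
Cyr61, chr3:145650071-145650100: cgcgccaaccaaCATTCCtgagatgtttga
Ankrd1, chr19:36120037-36120066: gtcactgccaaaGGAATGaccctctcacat
Ankrd1, chr19:36119950-36119979: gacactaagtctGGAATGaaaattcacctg
Amotl2, chr9:102717727-102717756: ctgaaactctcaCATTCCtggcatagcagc
The core started 141 bases before the transcript start in Yap1, 136 in Wwtr1 and 103 in Cyr61, and these 3 sites lay outside the annotated genes (GENCODE M21). In Ankrd1 the cores started 210 and 123 bases before the RefSeq start, and in Amotl2 65 bases before it. The Ankrd1 and Amotl2 sites overlapped an exon of the same gene that starts further upstream in GENCODE. Tead3 had 4 matches spread over 2 of its 3 windows, and these are not printed.

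Libraries held 33180867 to 49351107 counted fragments, and Yme1l-/- replicates 2 and 3 were the deepest. WT replicate 2 stood apart from the other 2 WT libraries over all loci (chi-square per degree of freedom of 34.8 and 37.6 with it, and 12.7 between the other two), as did Yme1l-/- replicate 1 from its own group (21.5 and 16.9 with it, and 8.64 between the other two). None of the 7 member calls was lost without either library. The columns of the count table name the WT libraries WT2, whereas their sample titles name only WT. They were matched by genotype and replicate number, and that WT2 is the control line of the titles is assumed. Levels are given as CPM, counts per 1e+06 fragments of a library's TMM-scaled size. Fold changes are Yme1l-/- over WT on the log2 scale with their standard error (SE), from edgeR's quasi-likelihood test across all tested loci. An adjusted p under 0.05 (Benjamini-Hochberg, two-sided) counted as a call. The p-values measure the spread between cultures of a genotype, which may share a clone. The targeted gene followed the labels. Yme1l1 had 191, 192 and 183 CPM in WT and 37.9, 38.9 and 40.6 CPM in Yme1l-/- cultures, which is 20.7% of the WT level, and its log2 fold change was -2.27 ± 0.05 (adjusted p = 2.4e-11).

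The comparison of the 10 genes asked whether the YAP-TEAD machinery and its targets differed in transcript level between the genotypes. Of the 10, 7 were called, 3 higher (Tead2, Tead4, Amotl2) and 4 lower (Yap1, Cyr61, Ctgf, Ankrd1) in Yme1l-/- cells. The genotypes differed widely, and 67.7% of all tested loci were called, 33.6% higher and 34.1% lower. A share of 70% among the 10 genes was thus near that of all loci. Without the filter on low counts the members called were also 3 higher and 4 lower, and the share of all loci was 43.6% of 23035. Libraries of the genotypes did not overlap for 8 of the 10, against 71.9% of all loci. The median log2 fold change was -0.09 over the 10 genes and -0.0041 over all tested loci. In size, the median absolute log2 fold change of all loci was 0.384 and its upper quartile 0.769, and Ctgf and Cyr61 lay above that quartile. Ctgf was the only one of the 10 that changed at least 2-fold, which 2459 of the 9387 called loci did, out of 13867 tested.

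**Figure D1:**
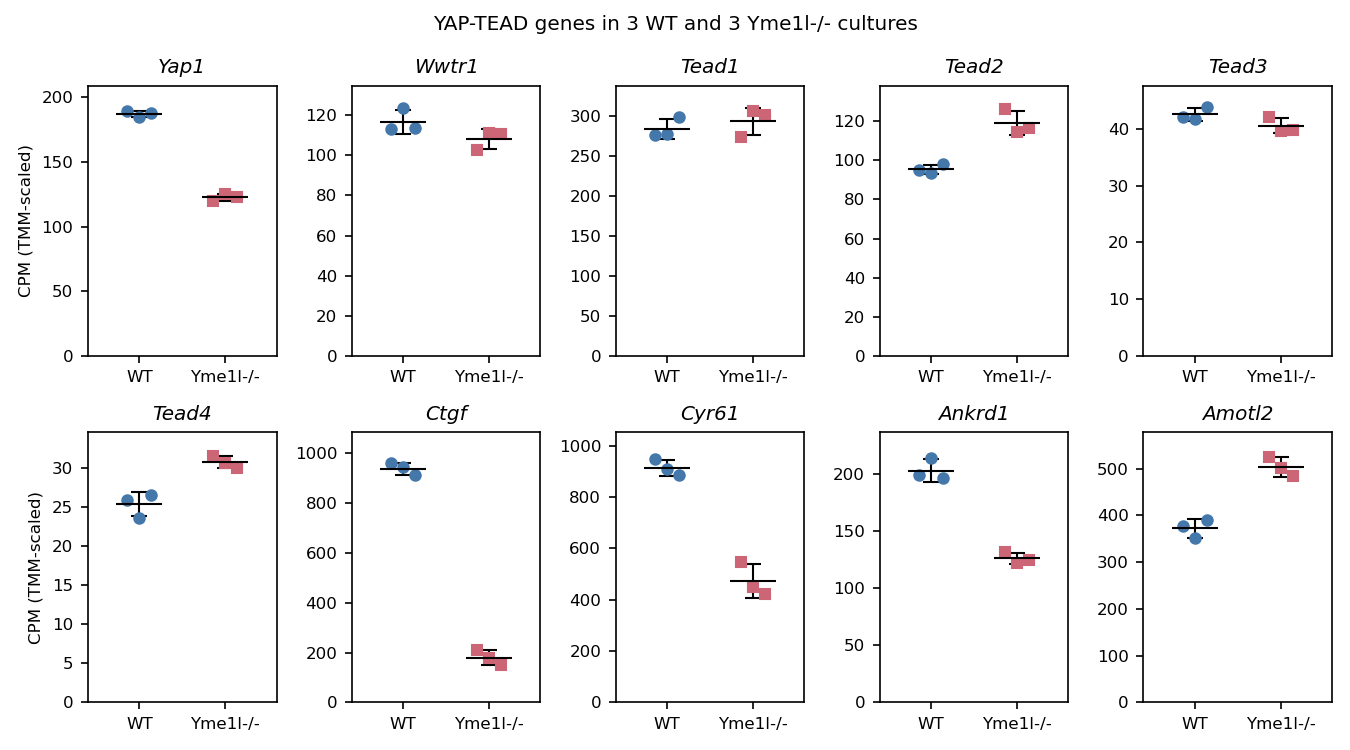
CPM (TMM-scaled, linear axes from 0) of each of the 10 genes in 3 WT cultures (circles) and 3 Yme1l-/- cultures (squares), with the mean (long line) and SD (error bar). Ctgf fell to 152 to 211 CPM from 911 to 959 CPM, whereas the libraries of the genotypes overlapped for Tead1 and Tead3.

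Chromosomes differed in the median shift of their loci between the genotypes, which bears on every small difference given below. Whether such a shift ran along a whole chromosome was not tested. The median log2 fold change of the tested loci ranged from -0.44 on chromosome 12 to 0.59 on chromosome 15. The members' chromosomes had medians of -0.36 (chromosome 9, Yap1 and Amotl2), -0.12 (chromosome 3, Wwtr1 and Cyr61), -0.0098 (chromosome 7, Tead1 and Tead2), 0.17 (chromosome 17, Tead3), 0.34 (chromosome 6, Tead4), 0.30 (chromosome 10, Ctgf) and 0.12 (chromosome 19, Ankrd1). The fold changes were therefore also computed with these medians removed. Changes in chromosome number between clones were not tested.

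Yap1 (ENSMUSG00000053110.13; GRCm38 chromosome 9, 7931999 to 8004596, minus strand) encodes the coactivator that the Hippo kinases restrain. It had 189, 185 and 188 CPM in WT cultures and 119, 125 and 123 CPM in Yme1l-/- cultures. All Yme1l-/- values lay below all WT values, and replicates of a genotype stayed within 5% of each other (highest over lowest 1.03 and 1.05). The means were 187 ± 2.44 and 123 ± 2.955 CPM (SD, n = 3), which left 65.5% of the WT level. The log2 fold change was -0.61 ± 0.04 (adjusted p = 1.8e-07), and -0.25 with the chromosome medians removed, where the call was kept (adjusted p = 2.6e-04).

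Wwtr1 (ENSMUSG00000027803.14; chromosome 3, 57455649 to 57575910, minus strand) encodes TAZ, the paralogue of YAP. Its levels were 113, 124 and 114 CPM in WT and 102, 111 and 111 CPM in Yme1l-/- cultures. The libraries did not overlap, by a margin of 113 against 111 CPM. Means of 117 ± 5.91 and 108 ± 4.86 CPM (SD, n = 3) differed by -0.11 ± 0.05 on the log2 scale, which was not called (adjusted p = 0.086). It was called with the replicate number as a block (adjusted p = 0.033), and it turned to 0.01 with the chromosome medians removed. A difference in Wwtr1 beyond the spread between cultures was thus not shown.

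The 4 TEAD factors carry the DNA-binding domain that YAP and TAZ lack. Tead1 (ENSMUSG00000055320.17; chromosome 7, 112679318 to 112906807, plus strand) had 276, 277 and 299 CPM in WT and 275, 306 and 301 CPM in Yme1l-/- cultures. The libraries overlapped. Its means were 284 ± 12.65 and 294 ± 16.9 CPM (SD, n = 3), and the difference was 0.05 ± 0.05 on the log2 scale (adjusted p = 0.43). The counted locus of Tead1 began upstream of the gene, at 112612560, and held 2 predicted genes of the same strand. Its counts may thus not be of Tead1 alone.

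Tead2 (ENSMUSG00000030796.17; chromosome 7, 45215753 to 45233644, plus strand), known from embryonic tissues, had 94.8, 93.5 and 98.0 CPM in WT and 126, 114 and 116 CPM in Yme1l-/- cultures. Each Yme1l-/- culture was above each WT culture. The rise, from 95.4 ± 2.28 to 119 ± 6.25 CPM (SD, n = 3), was 0.32 ± 0.05 on the log2 scale (adjusted p = 1.7e-04), and 0.33 with the chromosome medians removed. The counted locus ran past the gene's end to 45239115 (23363 bases against 17892 for the gene). Cd37 lies on the opposite strand within it, and whether fragments were counted by strand is not given in the sources used here. Genes of the opposite strand also lie within the loci of Yap1, Wwtr1, Tead1 and Tead4.

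Tead3 (ENSMUSG00000002249.21; chromosome 17, 28331671 to 28350817, minus strand) had 42.0, 41.8 and 43.8 CPM in WT and 42.1, 39.6 and 39.9 CPM in Yme1l-/- cultures, and Yme1l-/- replicate 1 lay among the WT values. Its log2 fold change was -0.07 ± 0.05 (adjusted p = 0.23), and it was called lower, at -0.24, with the chromosome medians removed (adjusted p = 0.0015). Tead4 (ENSMUSG00000030353.15; chromosome 6, 128224288 to 128300823, minus strand), known for its role in the trophectoderm of the early embryo, had 25.9, 23.6 and 26.5 CPM in WT and 31.5, 30.6 and 29.96 CPM in Yme1l-/- cultures. It was the member with the fewest fragments, 772 to 1546 per library. Its libraries did not overlap, and it was called higher at 0.28 ± 0.06 (adjusted p = 0.0018), but with the chromosome medians removed it turned to -0.06 and was not called (adjusted p = 0.38). Among the TEAD genes, Tead2 was thus the one whose call held in every alternative fit.

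Ctgf (ENSMUSG00000019997.11; chromosome 10, 24595442 to 24598683, plus strand) encodes connective tissue growth factor, a secreted matricellular protein and one of the most used readouts of YAP and TAZ. It had 959, 944 and 911 CPM in WT cultures and 211, 178 and 152 CPM in Yme1l-/- cultures. The highest Yme1l-/- culture, replicate 1, was far below the lowest WT culture, although the Yme1l-/- cultures differed among themselves by 1.39-fold. Ctgf thus fell from 938 ± 24.2 to 180.2 ± 29.6 CPM (SD, n = 3), to 19.2% of the WT level. The log2 fold change was -2.38 ± 0.11 (adjusted p = 1.4e-07) and stayed between -2.68 and -2.27 in all 13 alternative fits. The counted locus, 49243 bases against 3242 for the gene, reached upstream to 24549441, and 2 genes of the opposite strand lie within it.

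Cyr61 (ENSMUSG00000028195.4; chromosome 3, 145646976 to 145649981, minus strand) encodes another secreted matricellular protein of the CCN family. The WT cultures had 946, 908 and 885 CPM, and the Yme1l-/- cultures 548, 449 and 423 CPM. The genotypes were apart in every culture, and Yme1l-/- replicate 1 was again the highest of its genotype. Cyr61 fell from 913 ± 30.6 to 473 ± 66.1 CPM (SD, n = 3), which was -0.95 ± 0.09 on the log2 scale (adjusted p = 4.1e-06 in edgeR's test). The value moved to -1.07 without Yme1l-/- replicate 1 and to -0.83 with the chromosome medians removed, and the call was kept in all 13 alternative fits.

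Cyr61 and Ctgf had nearly equal counts in WT cells and unequal ones in Yme1l-/- cells. For each fragment of Cyr61 there were 1.01, 1.04 and 1.03 fragments of Ctgf in WT, and 0.385, 0.396 and 0.359 in Yme1l-/- cultures. The ratio within a library does not depend on scaling, and it did not overlap between the genotypes (difference of -1.44 on the log2 scale). The exact permutation test over the 6 libraries, two-sided, gave p = 0.10, the smallest that 3 against 3 can give. Yme1l-/- replicate 1 had the highest level of both genes, but its ratio lay between those of the other 2 Yme1l-/- replicates.

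Ankrd1 (ENSMUSG00000024803.9; chromosome 19, 36111961 to 36120099, minus strand) encodes an ankyrin-repeat protein of the nucleus and the sarcomere that responds to mechanical load. It had 199, 215 and 196 CPM in WT and 132, 122 and 125 CPM in Yme1l-/- cultures. All Yme1l-/- cultures were lower, with means of 203 ± 9.77 and 126 ± 4.83 CPM (SD, n = 3). Ankrd1 fell by 0.69 ± 0.05 on the log2 scale (adjusted p = 3.0e-07), to 62.2% of the WT level, and the alternative fits gave -0.80 to -0.63.

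Amotl2 (ENSMUSG00000032531.15; chromosome 9, 102716672 to 102733418, plus strand) encodes an angiomotin-like protein that binds YAP and holds it out of the nucleus, and it is itself a YAP/TAZ target. In contrast to the other 3 targets, it was higher in Yme1l-/- cells. Its levels were 377, 351 and 389.7 CPM in WT and 526, 501.5 and 483 CPM in Yme1l-/- cultures, without overlap. Means of 372 ± 19.9 and 504 ± 21.2 CPM (SD, n = 3) corresponded to 0.43 ± 0.05 on the log2 scale (adjusted p = 2.2e-05). Since the median of chromosome 9 was negative, the value rose to 0.79 with the chromosome medians removed. The 4 targets hence moved apart, 3 lower and 1 higher, and this split held in all 13 alternative fits.

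**Figure D2:**
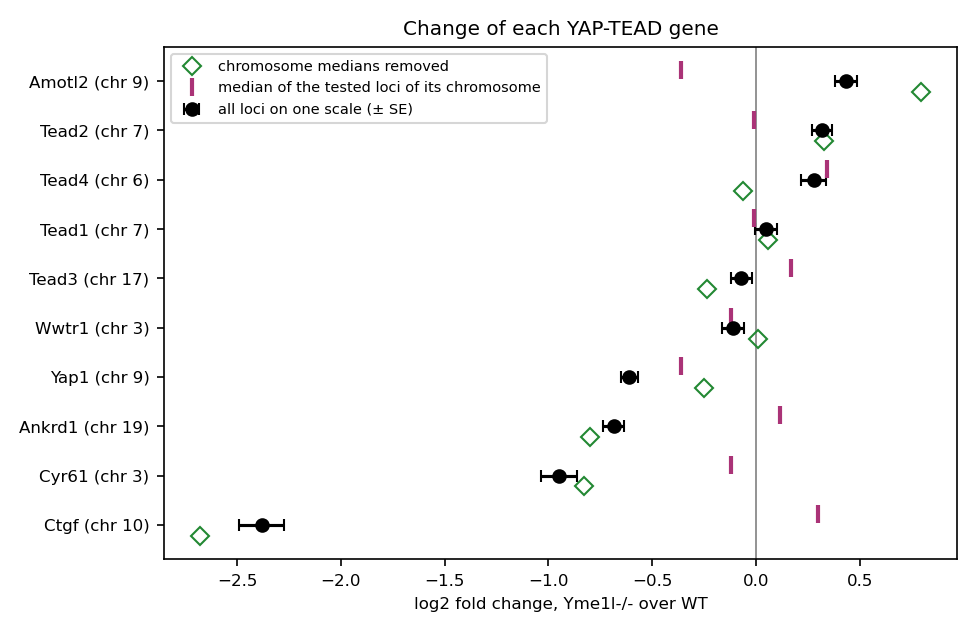
Log2 fold change, Yme1l-/- over WT, of the 10 genes on the common scale (black points with SE bars), the median of all tested loci of each gene's chromosome (purple ticks) and the gene's value with chromosome medians removed (green diamonds). Ctgf, Cyr61, Ankrd1 and Yap1 were below 0 and Amotl2 and Tead2 above it on both scales, while Tead4 (0.28 to -0.06) and Wwtr1 (-0.11 to 0.01) crossed 0.

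To compare levels between genes, CPM was divided by the kilobases of merged exons in GENCODE M21. On this scale the WT order was Cyr61 with 452 ± 15.2, Ctgf with 328 ± 8.45, Ankrd1 with 70.5 ± 3.38 and Amotl2 with 59.2 ± 3.16 CPM per kilobase (SD, n = 3), and no neighbours among these overlapped. The WT means of Yap1, Wwtr1, Tead1 and Tead2 lay between 19.9 and 24.4 CPM per kilobase, and those of Tead3 and Tead4 were 6.33 and 7.04. In Yme1l-/- cultures Cyr61 remained first with 235 ± 32.7 CPM per kilobase, and Amotl2 with 80.1 ± 3.37 came before Ctgf with 63.0 ± 10.4 and Ankrd1 with 43.8 ± 1.67. The deposited FPKM, a single pooled value per genotype, put Ctgf first over Amotl2 in WT (411.5 and 101) and Amotl2 over Ctgf in Yme1l-/- cells (144.5 and 79.2), as did CPM per kilobase. The order among Yap1, Wwtr1, Tead1 and Tead2, and that of Tead3 and Tead4, differed between CPM per kilobase and FPKM, so no order is read within these groups. In WT, FPKM was 53.5 for Tead2, 49.01 for Yap1, 34.5 for Tead1 and 24.9 for Wwtr1, and 17.75 for Tead3 against 9.36 for Tead4. On both scales Tead1 and Tead2 were above Tead3 and Tead4.

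By the root-mean-square difference of the centred log2 CPM profile over the 6 libraries, among 8730 loci compared, the loci most like Ctgf were Pcolce2 (difference 0.0408), Dpysl3 (0.121) and Tmsb4x (0.131). Their log2 fold changes were -2.35, -2.57 and -2.15. Those most like Cyr61 were Timp1 (0.0322), Gchfr (0.0568) and Mgat2 (0.0594), with log2 fold changes of -0.98, -0.99 and -0.88. With the chromosome medians removed, these 3 were at -0.77, -0.96 and -0.44, and Cyr61 at -0.83. Pcolce2, Dpysl3 and Tmsb4x were then at -1.99, -2.36 and -1.94, and Ctgf at -2.68. Timp1 encodes an inhibitor of matrix metalloproteinases. Like Cyr61 it was highest among Yme1l-/- cultures in replicate 1 (121, 105 and 99.1 CPM). So were the other loci named here, all of them chosen by this same profile. Tmsb4x encodes an actin-binding peptide and has near-identical copies in the genome, so its counts are uncertain. These loci were found by their likeness, and their values are a description.

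**Figure D3:**
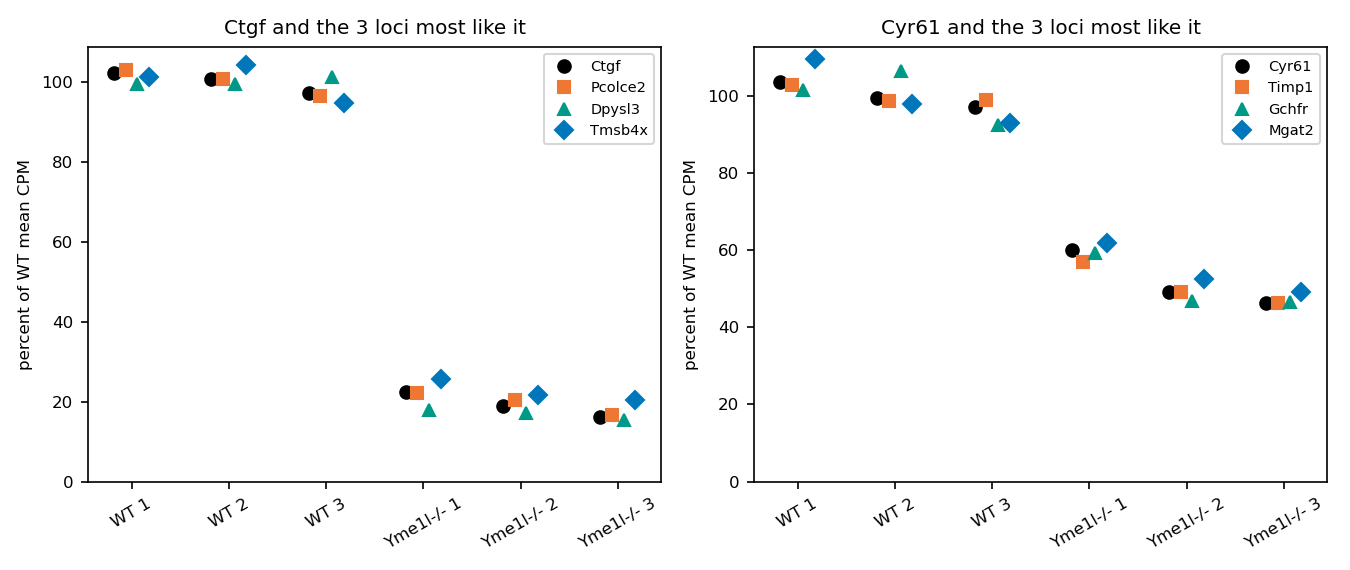
Level in each of the 6 libraries as percent of the gene's WT mean CPM (linear axes from 0), for Ctgf with Pcolce2, Dpysl3 and Tmsb4x (left) and for Cyr61 with Timp1, Gchfr and Mgat2 (right). Ctgf averaged 19.2% and Cyr61 51.8% of WT in Yme1l-/- cultures, and no order of the replicates is assumed.

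The upstream part of the pathway was described with a list of 28 Hippo pathway genes, 26 of which were tested. Of the 26, 6 were called higher, 12 lower and 8 not, a share called (69.2%) near that of all loci, with a median log2 fold change of -0.13. Among the kinases, Stk3 was called higher at 0.65 ± 0.05 but was at 0.06 and not called with the chromosome medians removed. Stk4 (0.10 ± 0.05), Lats1 (-0.09 ± 0.06) and the locus that merges Lats2 with Xpo4 (-0.10 ± 0.04) were not called, with edgeR adjusted p of 0.081, 0.24 and 0.058. With the chromosome medians removed, Lats1 was called lower (-0.38), Stk4 was called higher (0.12) and the Lats2 locus turned to 0.07. Sav1, the scaffold of the MST kinases, fell by 0.58 ± 0.05 (adjusted p = 1.2e-06), and its value was -0.15, still called, with the medians removed. Nf2, which encodes merlin and recruits LATS to the membrane, was called higher at 0.37 ± 0.05, and was at 0.0085 and not called with the medians removed.

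In that list, 2 of the 26 tested genes were called with at least a 2-fold change, beside 2459 of all 13867 tested loci. They were Fat1 and Dchs1, both of which encode large cadherins of the cell surface. Fat1 fell from 853 ± 126.5 to 342 ± 38.5 CPM and Dchs1 from 20.2 ± 2.51 to 8.09 ± 0.918 CPM (SD, n = 3), which was -1.32 ± 0.12 and -1.31 ± 0.11 on the log2 scale (edgeR adjusted p = 2.1e-05 and 1.1e-06). The angiomotin relatives of Amotl2, picked after their values were seen, differed in direction. Amot was higher at 0.81 ± 0.05 and Amotl1 lower at -0.61 ± 0.05, and both calls held with the chromosome medians removed (1.02 and -0.25). Vgll4, which competes with YAP for TEAD factors, was called higher at 0.49 ± 0.05, and at 0.15 with the medians removed (adjusted p = 0.033).

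Beyond the 4 target members, a list of 18 further genes described as YAP/TAZ targets was counted. All 18 were tested, and 4 were called higher, 10 lower and 4 not, with a median of -0.30. The share called was 77.8%. Of all loci 67.7% were called, 33.6% higher and 34.1% lower. Lats2 and Ptpn14 were in this list and in the Hippo list. At least 2-fold lower were, among others, Nt5e, which encodes the surface enzyme that makes adenosine from AMP, and Igfbp3, which encodes a binding protein of insulin-like growth factors. Nt5e fell from 12.5 ± 1.29 to 0.495 ± 0.0943 CPM (SD, n = 3). This was -4.63 ± 0.16 on the log2 scale (adjusted p = 7.5e-10). Igfbp3 had 47, 202 and 61 fragments in WT and 0 in each Yme1l-/- library, at least 36.8-fold lower against a floor of 3 counts per library. The bound rested on WT replicate 2 and was 19.2-fold without it, and the call was lost without the filter on low counts (adjusted p = 0.090), without WT replicate 3 (0.0997) and without Yme1l-/- replicate 1 (0.065).

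Rbms3 (an RNA-binding protein; -1.92 ± 0.08), Myof (a ferlin of the plasma membrane; -1.22 ± 0.06) and Dock5 (a Rac exchange factor; -1.16 ± 0.07) also fell at least 2-fold. Gadd45a, a growth-arrest gene, went the other way, with 20.2 ± 1.79 CPM against 7.78 ± 1.84 in WT (log2 fold change 1.37 ± 0.15, adjusted p = 1.6e-05). Further targets thus moved in both directions, as the 4 target members did, but more of the 18 were called lower (10) than higher (4).

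The family of secreted CCN proteins, to which Cyr61 and Ctgf belong, was counted in the same comparison. Of its 6 genes 5 were tested, Wisp3 having 0 fragments in every library, and all 5 were called, Cyr61 and Ctgf lower and Nov, Wisp1 and Wisp2 higher, beside 67.7% of all loci called, 34.1% lower and 33.6% higher. Wisp2 had 1.21, 3.33 and 1.32 CPM in WT and 31.4, 29.6 and 28.0 CPM in Yme1l-/- cultures (log2 fold change 3.92 ± 0.34, adjusted p = 1.5e-04), and its value was 4.55, still called, without WT replicate 2, the highest WT culture. Nov had 3.62, 5.16 and 2.63 CPM in WT and 10.1, 10.3 and 9.51 CPM in Yme1l-/- cultures (1.39 ± 0.19, adjusted p = 1.2e-04), and its value was 0.80 with the chromosome medians removed, still called. Libraries of the genotypes did not overlap for any of the 5, against 71.9% of all loci, and all Yme1l-/- cultures were higher for Nov, Wisp1 and Wisp2. Wisp1 was at 0.69 ± 0.05, and at 0.10 and not called with the chromosome medians removed.

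**Figure D4:**
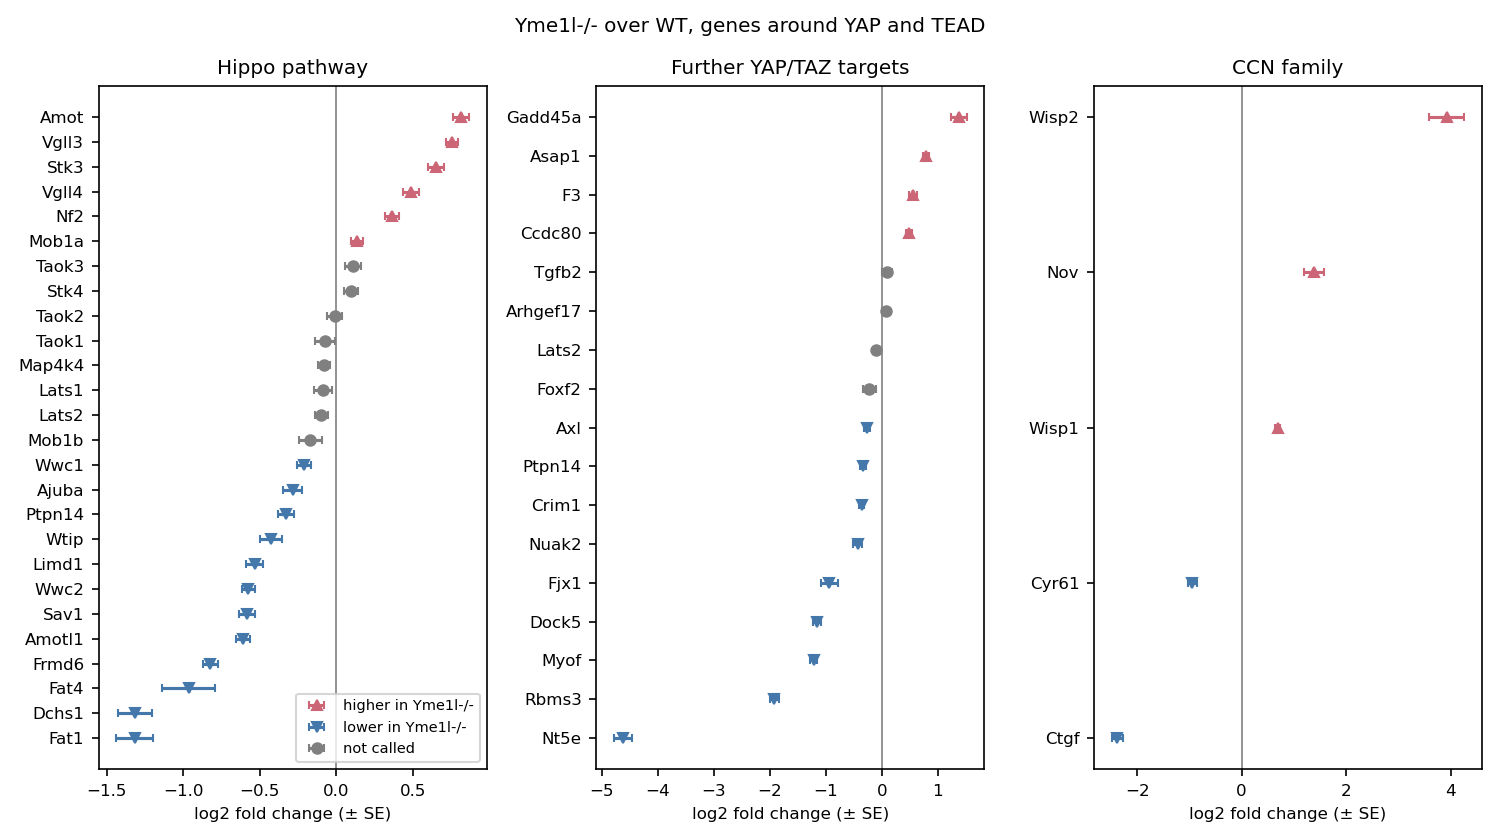
Log2 fold change (points, with SE bars), Yme1l-/- over WT, of the tested genes of the Hippo pathway list, the further YAP/TAZ targets and the CCN family; red triangles were called higher, blue triangles lower and grey circles not called. Igfbp3, with 0 fragments in Yme1l-/- libraries, is left out, Lats2 stands for a locus merged with Xpo4, and the calls of Stk3, Nf2, Ajuba and Wisp1 were lost and that of Mob1a turned with the chromosome medians removed.

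Markers of the labelled cell type were checked in the same fit, in which 67.7% of all loci were called. Of 8 fibroblast markers, 5 of the 7 tested were lower and 1 (Col1a1) higher in Yme1l-/- cells, Thy1 was at 0 to 6 fragments, and the summed level was 10833 to 11395 CPM in WT and 6642 to 7130 CPM in Yme1l-/- cultures. Vim (-1.33 ± 0.05 on the log2 scale) and Col3a1 (-2.48 ± 0.65) fell at least 2-fold, with WT replicate 2 standing apart for Col3a1 (301 CPM against 86.3 and 91.04). Without that culture Col3a1 was at -1.63 and still called, and its call was lost without any 1 of the Yme1l-/- cultures (edgeR adjusted p = 0.086 to 0.092). The 4 epithelial markers summed to 32.9 to 34.8 CPM in WT and 0.294 to 0.657 CPM in Yme1l-/- cultures, in WT nearly all of it Krt18 (at least 373-fold lower in Yme1l-/-), and Epcam fell by 3.83 ± 0.33, while Cdh1 and Krt8 were under 0.5 CPM in every library. The 4 endothelial markers summed to 0.888 to 1.435 CPM in WT and 1.668 to 2.002 CPM in Yme1l-/- cultures. For the 3 haematopoietic markers the sums were 1.679 to 1.872 and 3.456 to 3.924 CPM. For the muscle markers (4 found of 5) they were 0.918 to 2.198 and 2.354 to 3.112 CPM. Adgre1 and Myog were at 0. Called higher were Cd68 (1.04 ± 0.14), Tnnt2 (0.87 ± 0.25) and Kdr (0.72 ± 0.22). The call of Kdr was lost without WT replicate 3 (edgeR adjusted p = 0.052) or Yme1l-/- replicate 2 (0.062). The part of these shifts in the levels of the YAP-TEAD genes was not tested, and in bulk cultures a change in the share of cells and one in transcripts per cell cannot be told apart.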

How the data were processed

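Poly(A) RNA of 3 WT and 3 Yme1l-/- MEF cultures was sequenced by the authors from stranded libraries. Per the labels and the study's methods, reads were mapped to GRCm38 (mm10) with HISAT2 2.0.4, transcripts were assembled with StringTie 1.3.3 and genotypes were compared with Cuffdiff 2.2.1. The deposited counts are raw fragment counts per locus, without normalization. The FPKM deposited by the authors are 1 pooled value per genotype and were used only to order levels between genes. Columns of the authors' own comparison (log2 ratio, test statistic, p and q) were not used.

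Loci were filtered with filterByExpr (minimum count 10), scaled with TMM factors and tested with glmQLFit and glmQLFTest of edgeR 4.0.16 (limma 3.58.1, R 4.3.3), without covariates. A CPM is a count per 1e+06 fragments of scaled library size. Each SE is the fold change divided by the root of its F statistic. The code was tested on simulated data. Replicates differed by more than sampling noise (chi-square per degree of freedom 8.64 to 37.6). Bounds against a floor of 3 counts cover counting error only. Profiles were compared on log2 CPM with 0.5 counts added.

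The 10 members and all gene lists were chosen with earlier results of these data known. Genes named were Yme1l1, the members, list genes called with an absolute log2 fold change of at least 1, Lats1, Lats2, Nf2, Stk3, Stk4, Sav1, Vgll4 and the 3 loci most like Cyr61 and Ctgf. Amot, Amotl1, Wisp1, Hoxc13, Hoxd13, and single markers and list genes under that size were named after their values were seen. Gene positions and exon lengths were from GENCODE M21, and promoter windows from RefSeq (GRCm38.p6). Alternatives were RLE and upper-quartile scaling, DESeq2 1.42.0, other count filters, the replicate number as a block, each culture left out, and each chromosome's median removed. Leaving out cultures for the marker genes and for the bound of Igfbp3 was chosen after seeing the data.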

Additional observations from a re-analysis of the deposited data

How the results depend on the processing

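The number of calls among all loci ranged from 8528 to 10051 over the 13 alternative fits (43.6% of 23035 loci without the count filter, against 67.7%). The counts of members and list genes called in each direction stayed within 1.5 times those reported, a wide limit for short lists. With the chromosome medians removed, the Hippo list had 4 genes called higher and 14 lower, against 6 and 12 as reported. The further targets then had 5 higher and 11 lower, and the CCN family 2 and 2. With upper-quartile scaling the median over all loci moved to 0.0552 and 55.1% of calls were higher, against 49.6%. With the chromosome medians removed, the log2 fold changes of Wwtr1 (0.0101), Tead4 (-0.0642), Map4k4 (0.0741), the locus of Lats2 and Xpo4 (0.0738) and Mob1a (-0.21) changed sign, and the members called were 2 higher and 5 lower, where 62.8% of all loci were called, 49.5% of the calls being higher. Taok2, not called, turned to 0.0484 with upper-quartile scaling and ranged from -0.0408 to 0.0248 over fits that left out a culture, and Taok1, not called as reported, from -0.11 to 0.0071. With the chromosome medians removed Taok1 was called lower, at -0.43 (adjusted p = 2.0e-04). The causes of these turns were not tested beyond the removal of the medians itself. The replicate block gave 9794 calls, and Wwtr1, Mob1b and the Lats2 locus were called in it (-0.11, -0.17 and -0.10). The Lats2 locus was also called with RLE scaling, and Mob1b with DESeq2, without the count filter and without Yme1l-/- replicate 3. Over all tested loci, same-numbered cultures did not deviate together (correlations 0.117, -0.0799 and 0.0427). Ctgf and Cyr61, however, declined from replicate 1 to replicate 3 in both genotypes. In the replicate block the edgeR adjusted p was 1.4e-08 for Cyr61 and 1.2e-07 for Ctgf, against 4.1e-06 and 1.4e-07 without it. Whether same-numbered cultures were paired is not given in the sources used here, and a pairing in part of the genes was not tested. Each member had at least 772 fragments in each library, and the effect of depth on the calls was not tested. Each genotype had 3 cultures, which may share a clone.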
